A study of Mus musculus with 31 samples.

Results

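In mouse lung adenocarcinomas that retain Nkx2-1, 5320 of the 29265 Nkx2-1 peaks on chromosomes 1 to 19 (18.2%) overlapped no Foxa1/2 peak of either tumor type and had their summit outside every H3K4me3 island. These Nkx2-1-only sites away from H3K4me3 are described here. They were chosen from 4 deposited lists: Nkx2-1 peaks, Foxa1/2 peaks of Nkx2-1-deleted tumors, Foxa1/2 peaks of Nkx2-1-positive tumors, and H3K4me3 islands of positive tumors. An overlap of 1 bp with a Foxa1/2 peak was enough to leave a peak out. The absence of Foxa1/2 and of H3K4me3 at the summit, and the presence of Nkx2-1, are therefore part of the choice and not results. "No Foxa1/2 peak" means that none was called, not that no Foxa1/2 was bound.

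The study compared tumors in which Nkx2-1 had been deleted with tumors that were positive for it, both from mice of a mixed 129/B6 strain aged 4 to 7 months. Chromatin immunoprecipitation and sequencing gave Foxa1/2 and 4 histone marks in both tumor types and Nkx2-1 in positive tumors. Per the labels' protocols, a virus was delivered to the lungs through the trachea, either an adenovirus or a lentivirus, and tamoxifen was injected at a low or a high dose. The labels do not say which mice received which, nor which oncogene or recombinase alleles the deleted and positive tumors carried. Both Foxa1/2 libraries of deleted tumors came from female mice, and both Foxa1/2 and both Nkx2-1 libraries of positive tumors from male mice. Each histone group held 1 male and 1 female, and 1 input library served both an Nkx2-1 library and histone libraries of positive tumors. The island lists held between 18.5 and 45.7 M reads each. The 2 files of each of the 11 groups were identical, so each group gave 1 merged list, no difference below has a replicate check, and no p-value was computed. Bulk tumor was profiled, so a change in the cells that make up the tumor and a change within the cells cannot be told apart.

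Nkx2-1 is a homeodomain transcription factor that specifies lung epithelium and drives surfactant genes in alveolar type II cells. Foxa1 and Foxa2 are forkhead factors that open chromatin in endoderm-derived epithelia and often bind beside lineage factors. H3K27ac marks active promoters and enhancers, H3K4me1 marks enhancers whether active or not, H3K4me3 marks promoters, and H3K27me3 marks chromatin silenced by Polycomb. Factor-bound sites away from H3K4me3 are usually treated as candidate enhancers. In the text, a site carried a mark where an island of that mark covered at least 1 bp of the peak. A mark was lost where it was called in positive tumors only, gained where it was called in deleted tumors only, and kept where it was called in both.

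The sites were among the weaker and narrower Nkx2-1 peaks. Their Nkx2-1 score, the authors' own value for each peak, ran from 60 to 3100 with a median of 107. The median score was 132 for the 9585 Nkx2-1-only peaks at H3K4me3 islands, 194 for the 4615 peaks outside H3K4me3 that were shared with Foxa1/2, and 162 for all autosomal Nkx2-1 peaks. The median width was 806 bp, with quartiles of 700 and 910 bp, against 929 bp for all autosomal peaks. Sites made up 30.9% of the lowest of 5 score groups of the autosomal list and 5.51% of the highest. Over the 19 autosomes their number ran from 156 on chromosome 19 to 441 on chromosome 2, and their share of the Nkx2-1 peaks from 15.3% on chromosome 5 to 21.4% on chromosome 13. The nearest other site lay a median of 58367.5 bp away, and 907 (17.0%) had another within 10 kb. The nearest Nkx2-1 peak of any class was closer, at a median of 8809 bp, with one within 10 kb of 2808 sites (52.8%).

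At the edges of the rule the values were as follows. The 47 sites that lay within 100 bp of a Foxa1/2 peak had H3K27ac at 76.6% in deleted and 93.6% in positive tumors. The 32 peaks that were left out for an overlap of at most 100 bp had it at 65.6% in deleted and 84.4% in positive tumors. The 159 sites whose summit lay within 200 bp of an H3K4me3 island carried H3K27ac at 84.3% in deleted and 94.3% in positive tumors. For the 477 Nkx2-1-only peaks with the summit less than 200 bp inside such an island, the values were 81.3% in deleted and 90.8% in positive tumors.

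H3K27ac was called at 2595 of the 5320 sites in deleted tumors (48.8%, 95% Wilson interval 47.4 to 50.1) and at 4151 in positive tumors (78.0%, 76.9 to 79.1). The difference, deleted minus positive, was -29.2 points (interval -30.5 to -28.0), and the share was lower in deleted tumors on 19 of 19 autosomes. H3K27ac was lost at 1626 sites (30.6%), against 13.6% of all autosomal Nkx2-1 peaks, and gained at 70 (1.32%), against 0.519%. Loss was not particular to these sites. Foxa1/2-shared peaks outside H3K4me3 lost H3K27ac at 1232 of 4615 (26.7%), with a difference between the tumor types of -26.0 points (-27.4 to -24.7). Nkx2-1-only peaks at H3K4me3 islands lost it at 436 of 9585 (4.55%). H3K27ac was kept at 2525 sites and called in neither tumor type at 1099. Only peaks without the mark in positive tumors could gain it, and such peaks were more common among the sites. Over all autosomal Nkx2-1 peaks 152 gained H3K27ac and 1780 had it in neither tumor type. The shares of gain therefore do not compare peaks that could gain the mark. All intervals here cover counting error over peaks only, since neighboring peaks can share an island and no list has a replicate.

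The size of this difference depended on the length of the island lists. The H3K27ac islands covered 227.1 Mb with 31.2 M reads in deleted tumors and 291.8 Mb with 45.7 M reads in positive tumors. When only the densest positive-tumor islands were used, up to the length covered in deleted tumors, H3K27ac stood at 48.8% of the sites in deleted and 55.8% in positive tumors, a difference of -7.03 points (-8.27 to -5.79), with 767 sites lost and 393 gained. This cut removes islands from the positive list only.

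H3K4me1, the enhancer mark, was called at 72.4% (71.2 to 73.6) of the sites in deleted tumors and at 94.1% (93.5 to 94.7) in positive tumors. The difference was -21.7 points (-22.9 to -20.5), with the same direction on 19 of 19 autosomes. H3K4me1 was lost at 1200 sites (22.6%), against 6.36% of all autosomal Nkx2-1 peaks, and gained at 45 (0.846%), against 0.355%. Foxa1/2-shared peaks outside H3K4me3 lost it at 12.2%, and Nkx2-1-only peaks at H3K4me3 islands at 0.469%. With the lists cut to equal covered length the difference was -19.9 points, closer to the uncut value than for H3K27ac. The cut was also smaller, since H3K4me1 islands covered 300.4 Mb in deleted and 329.4 Mb in positive tumors. The checks of these marks are therefore not equally strict.

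H3K27me3, the Polycomb mark, was rare. It lay over 286 sites (5.38%, 4.80 to 6.01) in deleted tumors and 172 (3.23%, 2.79 to 3.74) in positive tumors, a difference of 2.14 points (1.70 to 2.59) that was above 0 on 17 of 19 autosomes. It was gained at 131 sites (2.46%), against 1.79% of all autosomal Nkx2-1 peaks, and lost at 17 (0.320%), against 0.178%. In the deleted tumors the share was 1.85 points higher at these sites than at Nkx2-1-only peaks at H3K4me3 islands (1.16 to 2.58) and 2.23 points higher than at Foxa1/2-shared peaks outside them (1.44 to 3.02). In the positive tumors these differences were 1.75 and 1.26 points, so the sites lay more often under H3K27me3 in both tumor types. Of the 131 sites that gained it, 26 (19.8%) carried H3K27ac in deleted and 55 (42.0%) in positive tumors, compared with 50.8% and 80.8% of the sites with no H3K27me3 in either tumor type.

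H3K4me3 gave little to compare, since the rule kept it from the summits. In deleted tumors 86 peaks (1.62%) touched an H3K4me3 island, and in positive tumors 246 (4.62%) touched one beside the summit. It was lost at 201 sites (3.78%), against 23.5% of all autosomal Nkx2-1 peaks, and gained at 41 (0.771%), against 0.318%. The rule used the positive-tumor list, so nothing is read from these shares. Also by summit, 41 of the 5320 sites lay in an H3K4me3 island of deleted tumors.

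**Figure D1:**
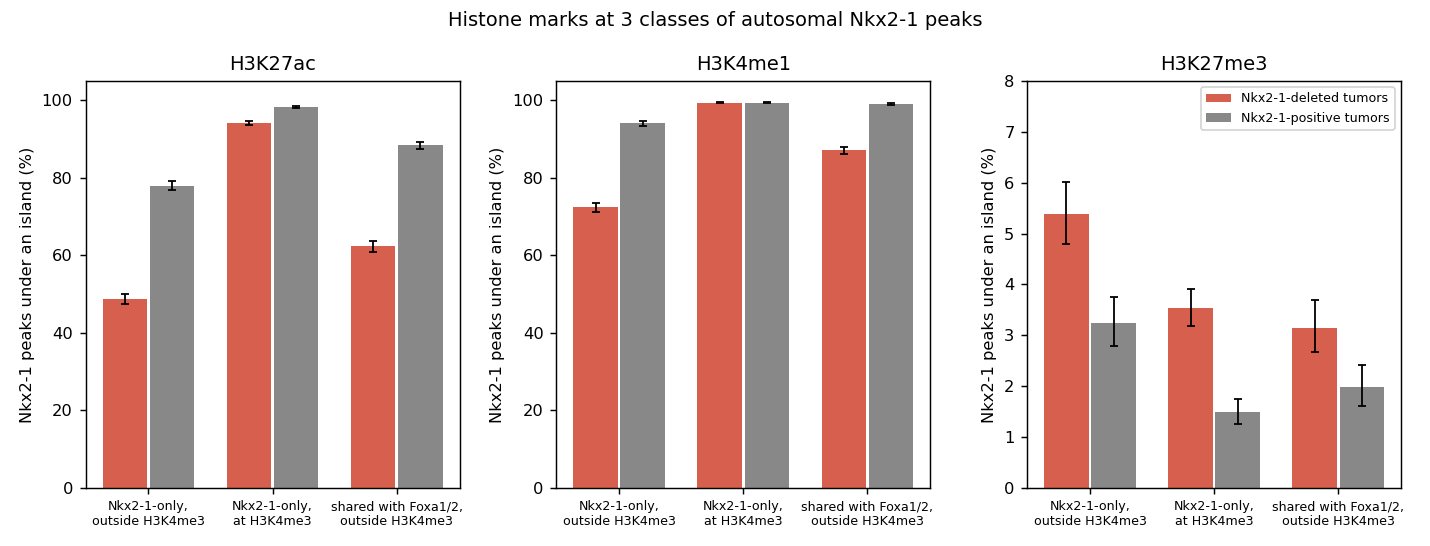
Share of Nkx2-1 peaks under an island of H3K27ac, H3K4me1 or H3K27me3 (percent, vertical axis; the H3K27me3 panel ends at 8%) in Nkx2-1-deleted tumors (red) and Nkx2-1-positive tumors (grey), for Nkx2-1-only sites outside H3K4me3 and 2 other classes of Nkx2-1 peaks. Bars are single merged lists and error bars 95% Wilson intervals; at the sites outside H3K4me3, H3K27ac stands at 48.8% in deleted and 78.0% in positive tumors.

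Where both enhancer marks were followed together, most sites began with both. In positive tumors 4100 sites (77.1%) carried H3K27ac with H3K4me1, 908 (17.1%) H3K4me1 alone, 51 H3K27ac alone and 261 (4.91%) neither. In deleted tumors the counts were 2512 (47.2%) with both, 1341 (25.2%) with H3K4me1 alone, 83 with H3K27ac alone and 1384 (26.0%) with neither.

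The 2 marks went separate ways at many sites. Of the 4100 sites with both marks in positive tumors, 2437 (59.4%, 57.9 to 60.9) had both in deleted tumors, 972 (23.7%) had H3K4me1 alone and 621 (15.1%, 14.1 to 16.3) had neither. Of the 908 sites with H3K4me1 alone in positive tumors, a state often called primed, 507 (55.8%, 52.6 to 59.0) had neither mark in deleted tumors, 344 (37.9%) were still under H3K4me1 alone and 55 (6.06%) carried both. The 261 sites with neither mark mostly had neither in deleted tumors as well (226, or 86.6%), and 37 of the 261 lay under H3K27me3 in positive tumors.

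**Figure D2:**
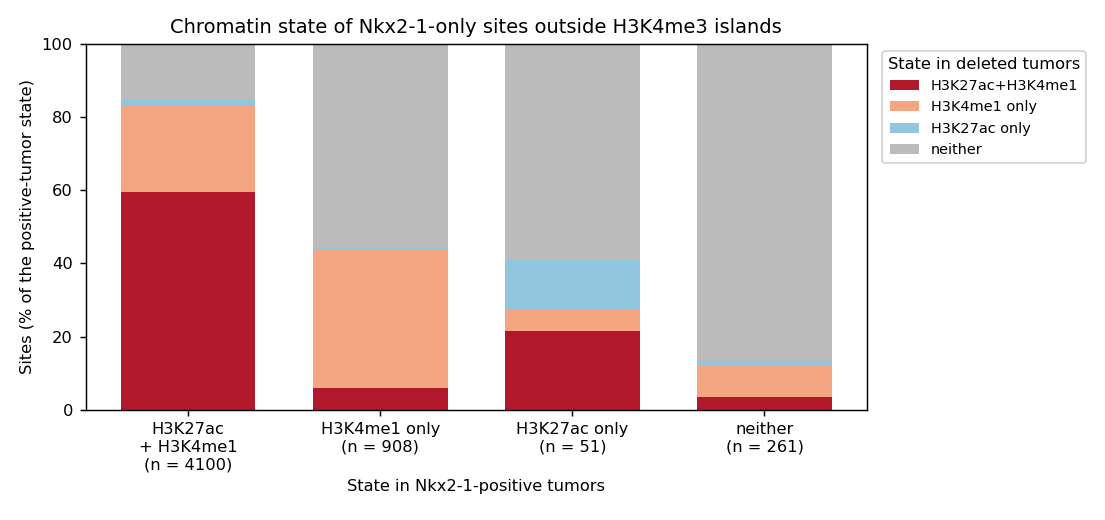
State of the Nkx2-1-only sites outside H3K4me3 islands in Nkx2-1-deleted tumors (colors, percent of each bar) for each state in positive tumors (bars, number of sites below). Of sites with both marks in positive tumors, 59.4% had both in deleted tumors; of those with H3K4me1 alone, 55.8% had neither.

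Where H3K27ac was lost, H3K4me1 was found less often at these sites than in both classes compared. Of the 1626 sites that lost H3K27ac, 975 (59.96%, 57.6 to 62.3) had H3K4me1 in deleted tumors. The share was 72.9% of 1232 such peaks among those shared with Foxa1/2 outside H3K4me3, a difference of -12.9 points (-16.3 to -9.45). It was 91.5% of 436 such peaks among the Nkx2-1-only peaks at H3K4me3 islands, a difference of -31.6 points (-34.9 to -27.7). These comparisons were not split by the strength of the H3K27ac island, which differed between the classes. The H3K27ac island of the site as a whole was usually gone too: 1278 of the 1626 lost sites (78.6%) lay in a positive-tumor island that no deleted-tumor island overlapped at any base. The other 348 sat in islands that were still called elsewhere along their length. The nearest H3K27ac island of deleted tumors lay a median of 6672.5 bp from a lost site, and 179 (11.01%) had one within 1 kb.

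H3K27ac was kept less often at these sites than in both neighboring classes of Nkx2-1 peaks. Of the 4151 sites with H3K27ac in positive tumors, 60.8% (59.3 to 62.3) had it in deleted tumors. Nkx2-1-only peaks at H3K4me3 islands kept it at 8987 of 9423 (95.4%), a difference of -34.5 points (-36.1 to -33.0), with the sites lower on 19 of 19 autosomes. Foxa1/2-shared peaks outside H3K4me3 kept it at 2847 of 4079 (69.8%), a difference of -8.97 points (-11.01 to -6.92), with the sites lower on 18 of 19 autosomes. With lists of equal covered length the kept share of the sites was 74.2%, and the differences were -22.8 points from peaks at H3K4me3 and -4.22 points (-6.33 to -2.12) from Foxa1/2-shared peaks. For H3K4me1 the kept share was 76.0% at the sites, 99.5% at Nkx2-1-only peaks at H3K4me3 and 87.6% at Foxa1/2-shared peaks outside it.

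The strength of the H3K27ac island moved with the class and with the kept share. Positive-tumor islands that held a site had a median of 515 reads and 4800 bp, against 1275 reads and 6200 bp for Nkx2-1-only peaks at H3K4me3 and 812 reads and 6400 bp for Foxa1/2-shared peaks outside H3K4me3. When the autosomal islands were split into 5 equal groups by read count, the kept share of the sites went up with the island, from 18.2% in the lowest group through 27.3%, 44.7% and 64.0% to 84.3% in the highest. Within these groups the sites differed from Foxa1/2-shared peaks by -3.74, -3.04, 1.49, -1.10 and -4.13 points, and the interval of the difference left out 0 in the highest group alone (-6.37 to -1.93). Within the same groups the differences from Nkx2-1-only peaks at H3K4me3 were -33.4, -40.4, -39.7, -30.6 and -14.4 points, with all 5 intervals below 0. Splitting by reads per kb instead gave differences from Foxa1/2-shared peaks between -4.38 and -1.01 points, and from Nkx2-1-only peaks at H3K4me3 between -28.6 and -9.71 points. The interval from Foxa1/2-shared peaks again left out 0 in the highest group alone (-5.78 to -1.35). Thus a lower kept share than at Foxa1/2-shared peaks was resolved only in the highest group of either split, and was small there. Against peaks at H3K4me3 the kept share was lower in every group. The highest group by read count is wide, from 785 to 36760 reads, so the classes can still differ in strength within it. It held 40.5% of the sites with H3K27ac, 51.1% of such Foxa1/2-shared peaks and 67.0% of such peaks at H3K4me3.

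**Figure D3:**
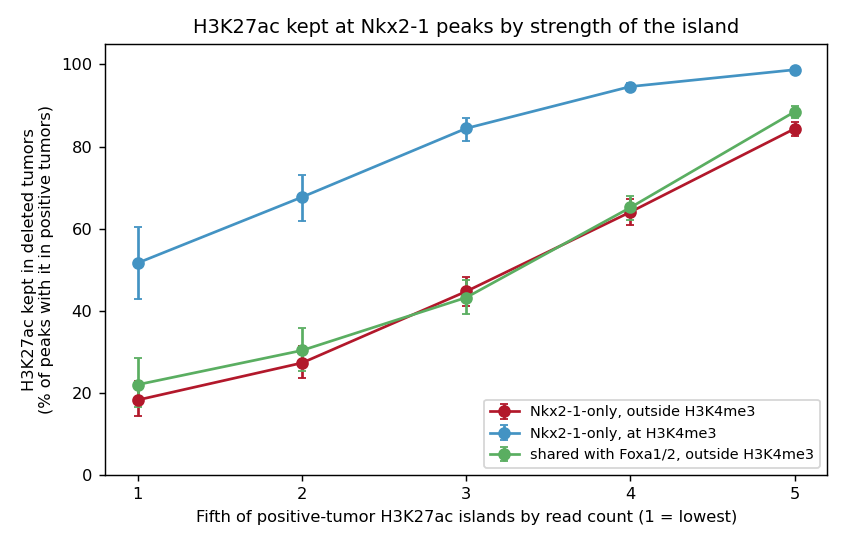
H3K27ac kept in Nkx2-1-deleted tumors (percent of peaks that have it in positive tumors, vertical axis) by group of the positive-tumor H3K27ac island, ranked by read count over all autosomal islands (1 is lowest), for 3 classes of Nkx2-1 peaks. Points are single merged lists with 95% Wilson intervals; the sites outside H3K4me3 (red) run from 18.2% to 84.3%, near the Foxa1/2-shared peaks (green) and below the peaks at H3K4me3 (blue).

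The highest-scoring sites did not keep H3K27ac more often than the lowest-scoring ones. Ranked by Nkx2-1 score into 5 groups of 1064, the sites carried H3K27ac in positive tumors at 72.0%, 74.9%, 78.2%, 80.9% and 84.1% from the lowest to the highest group. In deleted tumors the values were 46.7%, 47.7%, 50.9%, 51.0% and 47.5%. The difference between the tumor types was -25.3 points (-28.1 to -22.4) in the lowest group and -36.7 points (-39.6 to -33.7) in the highest. The kept share was 55.9% in the highest and 62.5% in the lowest group, a difference of -6.67 points (-11.4 to -1.92). This interval reached 0 when the island had to cover the summit or 50% of the peak. The islands of the highest group were stronger, with a median rank at 77.1% of the list against 68.2% in the lowest. Within the 5 groups of island read count, the differences, highest minus lowest score, were -12.3, -12.1, -29.9, -12.5 and -2.83 points, and the interval reached 0 in the second and the fifth. For H3K4me1 the kept share was 76.2% in the highest and 75.5% in the lowest score group.

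Foxa1/2-shared peaks outside H3K4me3 kept H3K27ac at similar shares at high and low scores. In the highest of 5 score groups of the whole autosomal list, with scores of 401 or more, the sites kept H3K27ac at 138 of 271 (50.9%, 45.0 to 56.8) and Foxa1/2-shared peaks at 794 of 1115 (71.2%), a difference of -20.3 points (-26.7 to -13.8). In the lowest group, with scores of 60 to 86, the shares were 62.0% at the sites and 71.1% at Foxa1/2-shared peaks, a difference of -9.06 points (-13.4 to -4.56). Whether the trend with score differed between the classes was not tested. Of the 50 sites of highest score, 20 had H3K27ac in deleted and 38 in positive tumors, and 12 had it in neither.

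**Figure D4:**
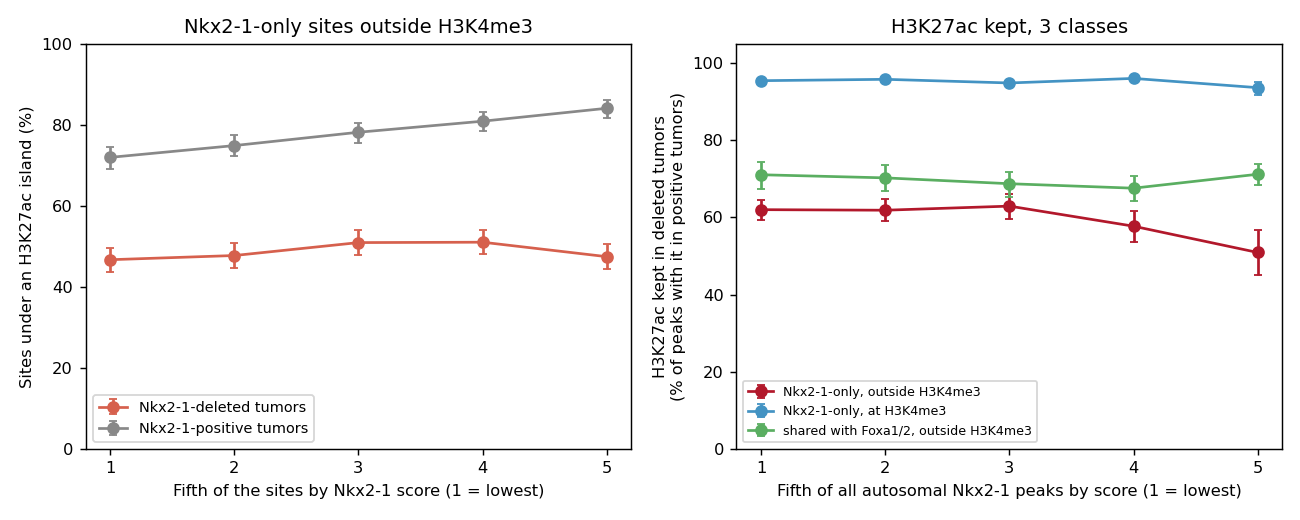
Left, Nkx2-1-only sites outside H3K4me3 under an H3K27ac island (percent) in Nkx2-1-deleted (red) and Nkx2-1-positive tumors (grey), by group of Nkx2-1 score among the sites. Right, H3K27ac kept in deleted tumors (percent of peaks that have it in positive tumors) by group of score over all autosomal Nkx2-1 peaks, for 3 classes; error bars are 95% Wilson intervals, and the red points end at 50.9%.

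Although no site overlapped a Foxa1/2 peak, many lay near one. The nearest Foxa1/2 peak was a median of 26148 bp away in deleted and 13179.5 bp away in positive tumors. Within 10 kb there was one for 1462 sites (27.5%) in deleted and 2307 (43.4%) in positive tumors. The deleted-tumor list is the shorter, with 14526 peaks against 23039.

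The enhancer marks were kept more often the closer a Foxa1/2 peak of either tumor type lay. The kept share of H3K27ac was 81.0% (76.9 to 84.6) within 1 kb, 73.4% from 1 to 3 kb, 67.8% from 3 to 10 kb, 53.2% from 10 to 30 kb, 41.2% from 30 to 100 kb and 30.9% (23.7 to 39.1) beyond 100 kb. The kept share of H3K4me1 followed the same order, from 94.6% within 1 kb to 58.0% beyond 100 kb. H3K27ac itself was called at 77.4% of sites within 1 kb in deleted and 93.5% in positive tumors, and beyond 100 kb at 14.5% in deleted and 45.9% in positive tumors. H3K27me3 was at 3.03%, 1.81% and 2.42% in deleted and 2.10%, 1.11% and 1.21% in positive tumors over the 3 bins within 10 kb. Farther out it was at 4.72%, 10.1% and 18.6% in deleted and 2.26%, 6.55% and 13.2% in positive tumors. Nkx2-1 scores hardly differed along this distance, with medians between 102.5 and 109. Island strength and nearness to H3K4me3 did move with it: the median rank of the H3K27ac island was 89.8% within 1 kb and 55.8% beyond 100 kb, and 73.7% and 20.9% of the sites lay within 10 kb of an H3K4me3 island.

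Nearness to H3K4me3 went with kept H3K27ac in the same way. The summit lay a median of 8330.5 bp from an H3K4me3 island of positive tumors. The kept share was 83.0% (79.1 to 86.3) within 1 kb of an island and beyond 100 kb 27 of 100 sites kept it (19.3 to 36.4%). When both distances were split at 10 kb, the kept share was 76.3% of 1709 sites near both, 58.0% of 566 near Foxa1/2 alone, 56.3% of 813 near H3K4me3 alone and 40.9% of 1063 near neither. Each distance thus went with a difference when the other was held to its side of 10 kb. The median rank of the H3K27ac island followed the same order, at 90.2%, 70.4%, 64.6% and 53.5%. Island strength was not held alike in this split, and its part in these differences was not tested.

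The kept share also differed with the kind of Foxa1/2 peak nearby. Foxa1/2 peaks were called lost where they were found in positive tumors only, gained where found in deleted tumors only, and kept where they overlapped between the tumor types. Sites with only lost Foxa1/2 peaks within 10 kb kept H3K27ac at 519 of 924 (56.2%, 53.0 to 59.3), and sites with only kept ones at 447 of 561 (79.7%, 76.2 to 82.8). The difference was -23.5 points (-28.0 to -18.8), with the same direction on 19 of 19 autosomes. Sites with no Foxa1/2 peak within 10 kb kept it at 893 of 1877 (47.6%, 45.3 to 49.8), a difference of -32.1 points from sites near kept ones only (-36.0 to -27.9). Sites with only gained Foxa1/2 peaks nearby kept it at 163 of 203 (80.3%, 74.3 to 85.2), 24.1 points above sites near lost ones only (17.3 to 29.98). Where peaks of several of these classes lay within 10 kb, the share was 503 of 586 (85.8%, 82.8 to 88.4). Median Nkx2-1 scores in these 5 sets ran from 100 to 110.5.

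This contrast was also found when the islands were grouped by read count. Within the 5 groups of island read count, sites near lost Foxa1/2 peaks only differed from sites near kept ones only by -13.0, -27.7, -24.8, -31.6 and -16.7 points. The interval reached 0 in the lowest of the 5 groups alone, which held 46 sites near lost and 23 near kept peaks. Sites with no Foxa1/2 peak within 10 kb differed from sites near kept ones only by -15.7, -24.3, -21.2, -22.3 and -10.6 points in the same groups, each closer to 0 than the -32.1 points over all islands, and the interval reached 0 in the lowest group. In the upper 4 groups their kept shares were 23.2%, 41.2%, 59.3% and 80.6%. Sites near lost peaks only had lower shares there, at 19.8%, 37.5%, 50% and 74.5%. By these shares alone the order of the sets differed from that over all islands. No interval was computed for this difference within the groups, so the change of order was not tested. Gains of H3K27ac were counted in the same sets. Of the sites without it in positive tumors, 11 of 42 (26.2%, 15.3 to 41.1) had it in deleted tumors where only gained Foxa1/2 peaks lay within 10 kb, against 40 of 891 (4.49%, 3.31 to 6.06) where none did. The difference was 21.7 points (10.7 to 36.6) and rests on 11 sites. Near kept peaks only the count was 6 of 49 (12.2%, 5.73 to 24.2) and near several classes 6 of 30 (20%, 9.51 to 37.3), with intervals that overlap that near gained peaks. Both Foxa1/2 libraries of deleted tumors were from females and both of positive tumors from males, so for lost and gained Foxa1/2 peaks tumor type and sex cannot be told apart.

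**Figure D5:**
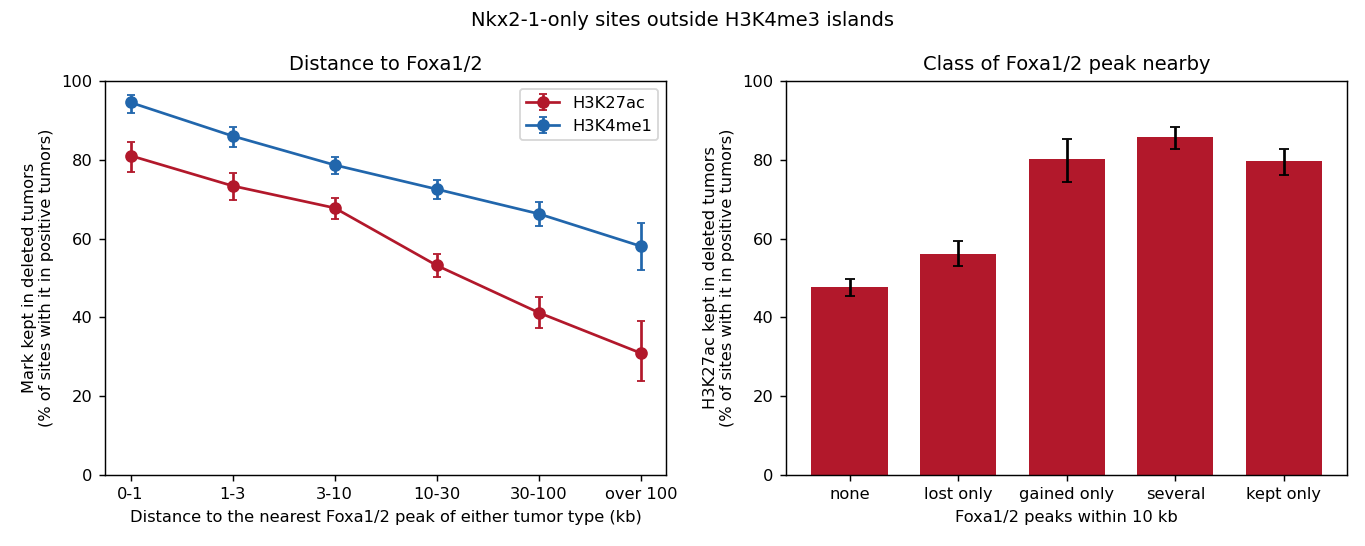
Marks kept in Nkx2-1-deleted tumors at Nkx2-1-only sites outside H3K4me3 (percent of sites that have the mark in positive tumors). Left, H3K27ac (red) and H3K4me1 (blue) by distance in kb to the nearest Foxa1/2 peak of either tumor type; right, H3K27ac by the class of Foxa1/2 peaks within 10 kb, from 47.6% with none to 85.8% with peaks of several classes; error bars are 95% Wilson intervals.

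Sites that lay in the same H3K27ac island mostly had the same outcome. The 4151 sites with H3K27ac in positive tumors lay in 3877 islands, of which 245 held more than 1 site. In 166 of these all sites kept H3K27ac, in 41 all lost it and in 38 some kept and some lost it. How often sites of separate islands would have the same outcome was not tested. Islands that also held a Foxa1/2 peak kept H3K27ac at 82.3% of their 1416 sites. Islands with no Foxa1/2 peak but another kind of Nkx2-1 peak kept it at 69.8% of 162 sites. Islands with neither kept it at 48.4% of 2573 sites. Island width fell in the same order, with medians of 13600, 7600 and 2800 bp. The part of width in these shares was not tested. At kept sites the island had a median width of 4400 bp in deleted and 7200 bp in positive tumors. The whole H3K27ac list covered 227.1 Mb in deleted and 291.8 Mb in positive tumors. Whether the narrower width was particular to these sites was not tested.

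The 3 H3K27ac islands with most sites held 4 each (build mm9, positions counted from 1). The island on chromosome 11 from 53871201 to 53887200 held no other Nkx2-1 peak and no Foxa1/2 peak of either tumor type. H3K27ac covered 100% of it in both tumor types, and H3K27me3 covered 17.5% in deleted and 0% in positive tumors. The island on chromosome 11 from 86825601 to 86857400 held 2 other Nkx2-1 peaks and 2 Foxa1/2 peaks in each tumor type, and H3K27ac covered 86.8% of it in deleted tumors. That on chromosome 17 from 46058401 to 46118200, 59800 bp wide, held 5 other Nkx2-1 peaks and 3 Foxa1/2 peaks in deleted and 6 in positive tumors. H3K27ac covered 91.3% of it in deleted tumors. All 12 sites in these 3 islands kept H3K27ac.

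The 5 sites of highest score carried different sets of marks. The first, on chromosome 19 from 6177825 to 6179244 with a score of 3100, had no H3K27ac in either tumor type. H3K4me1 lay over 0% of its width in deleted and 100% in positive tumors, and H3K27me3 over 12.4% in deleted and 0% in positive tumors. The second, on chromosome 12 from 80689468 to 80690647 (score 2481), lay in a 24000 bp island and was covered over its whole width by H3K27ac and H3K4me1 in both tumor types. The next, on chromosome 19 from 27211156 to 27212327 (score 2257), had no H3K27ac in either tumor type, and H3K4me1 lay over 0% of its width in deleted and 38.0% in positive tumors. The site on chromosome 9 from 94483825 to 94485171 (score 2140) lay 126601 bp from the nearest Foxa1/2 peak. Over its width H3K27ac covered 0% in deleted and 100% in positive tumors, while H3K4me1 covered 87.3% in deleted and 100% in positive tumors. The last of the 5, on chromosome 4 from 136815943 to 136817383 (score 2083), was wholly under H3K4me1 in both tumor types and under H3K27ac in neither.

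Among sites that lost H3K27ac, the next highest scores lay on chromosome 13 from 72348862 to 72350020 (1667) and on chromosome 7 from 150542537 to 150543872 (1646). The first had no mark in deleted tumors, where positive tumors had H3K27ac over 46.5% and H3K4me1 over 100% of it. Its H3K27ac island in positive tumors was weak, 1200 bp wide and at a rank of 15.1% of the list by read count. The second was still covered by H3K4me1 over its whole width in deleted tumors. Among kept sites, those on chromosome 16 from 45898227 to 45899534 (1947) and chromosome 5 from 9391406 to 9392702 (1840) followed the one on chromosome 12. H3K27ac covered the site on chromosome 16 over 100% in both tumor types and that on chromosome 5 over 69.5% in deleted and 100% in positive tumors.

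Sites that gained H3K27ac were weaker, with a median score of 88. The highest lay on chromosome 6 from 118129396 to 118130431 (score 606), 833 bp from a Foxa1/2 peak of positive tumors, and was under H3K4me1 over 99.5% of its width in both tumor types. The next lay on chromosome 15 from 74302749 to 74304100 (score 579). Both H3K27ac and H3K4me1 lay over 100% of its width in deleted and 0% in positive tumors, and H3K27me3 covered 0% in deleted and 100% in positive tumors. The one after, on chromosome 2 from 154333309 to 154334236 (score 231), had H3K27ac over 53.0% in deleted and 0% in positive tumors, with H3K4me1 over 96.1% in both. Of sites that gained H3K27me3, the site on chromosome 17 from 35777135 to 35778456 (score 1154) kept H3K27ac over its whole width. H3K4me3 lay over 4.24% of its width in deleted and 69.7% in positive tumors, and H3K27me3 over 4.99% in deleted tumors. The site on chromosome 11 from 90286226 to 90287709 (score 1149) carried neither enhancer mark in either tumor type, and H3K27me3 covered 7.35% of it in deleted tumors.

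H3K27ac was called in neither tumor type at 1099 of the 5320 sites (20.7%). The counts were 506 of 4615 Foxa1/2-shared peaks outside H3K4me3 and 1780 of all 29265 autosomal Nkx2-1 peaks. These 1099 sites had a median score of 96, against 109 for kept and 115 for lost sites. H3K4me1 lay over 366 of them (33.3%, 30.6 to 36.1) in deleted and 851 (77.4%, 74.9 to 79.8) in positive tumors. H3K27me3 lay over 184 (16.7%, 14.7 to 19.1) in deleted and 126 (11.5%, 9.71 to 13.5) in positive tumors, against 1.31% and 0.515% of kept sites. They were also the most remote, with a Foxa1/2 peak a median of 59909 bp away in deleted and 32498 bp away in positive tumors. Of all 5320 sites, 176 (3.31%) had none of the 4 marks in either tumor type. The share of all Nkx2-1 peaks with none of them is not given here, so nothing is read from this count.

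One run of sites stood apart from the rest. Chromosome 9 from 2999863 to 3038552 held 12 sites with gaps of at most 10 kb, the longest such run, with scores from 70 to 485. The run begins with the first Nkx2-1 peak listed on that chromosome, at the start of its assembled sequence, where reads of repeats can pile up. Whether these peaks are an artifact of mapping was not tested. None had H3K27ac in either tumor type, and 1 of the 12 lay under any of the 4 marks. Without them the difference in H3K27ac was -29.3 points, and 165 sites had none of the 4 marks.

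The difference in H3K27ac was seen on all 19 autosomes. The autosomes come from the same merged list of each tumor type and are not replicates. Over all autosomal Nkx2-1 peaks H3K27ac stood at 80.3% in deleted and 93.4% in positive tumors, also lower on 19 of 19 autosomes. The same direction on 19 of 19 was found in both classes compared, so it was not particular to these sites. At equal covered length the difference over all sites was -7.03 points. The values for each autosome are for the uncut lists, and the part of list length in them was not tested. Over the 19 autosomes, H3K27ac stood at 43.4% to 57.8% of the sites in deleted tumors (median 49.0%) and at 74.6% to 84.4% in positive tumors (median 77.5%), so the ranges did not overlap. The difference ran from -34.5 points on chromosome 2 to -20.4 points on chromosome 15. H3K4me1 stood at 66.3% to 77.3% in deleted and 89.7% to 97.3% in positive tumors, also without overlap. For H3K27me3 the ranges overlapped, at 1.90% to 10.3% in deleted and 1.15% to 5.77% in positive tumors.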

How the data were processed

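Of 31 samples, the 22 with files formed 11 groups, and the 9 inputs were not used here. Each deposited peak carries the score of the authors' peak caller (at least 60), and each deposited island a read count, not scaled for depth. Per the submitters' processing notes, Bowtie, MACS 1.4.2, SICER 1.1 and build mm9 belong to the study, with no role given. Per the file headers and names, the lists are merged, with a p of 1e-06 for peaks and, for islands, a window of 200 bp, a gap of 200 or 600 bp and an FDR of 0.01. The sources used here do not give total library depth.

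The sites and comparisons were chosen with earlier results of these data known. The split by island strength, the classes of neighboring Foxa1/2 peaks, the combinations with distance and the list without the chromosome 9 run were chosen after these data were seen. Scores and counts ranked or filtered within 1 list only. Shares have 95% Wilson intervals, differences between classes Newcombe intervals, and differences between tumor types intervals from the discordant counts, for counting error only. The code was tested on simulated intervals. Named regions were the 5 sites of highest score, the 3 of highest score in each H3K27ac class and among sites gaining H3K27me3, and the 3 islands with most sites. Genes, sequences and motifs were not analysed here, for want of an mm9 annotation. Alternatives were the overlap counted as marked, shorter lists and other Foxa1/2 distances. Python 3.11.15, numpy 2.4.6 and matplotlib 3.10.9 were used.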

Additional observations from a re-analysis of the deposited data

How the results depend on the processing

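Of 49 values from 7 results under 7 alternatives, 23 stayed within the interval of the reported value, 24 moved outside it with the same sign and 2 changed sign. Both sign changes were in the H3K4me3 difference, at 0.771 points with islands over the summit, where the rule sets the positive share to 0, and 0.639 points with equal covered length, which shortens the positive list only. With equal covered length the differences became -7.03 points for H3K27ac and -19.9 for H3K4me1; the kept share of the sites differed by -22.8 points from Nkx2-1-only peaks at H3K4me3, by -4.22 from Foxa1/2-shared peaks, and by -11.9 between the highest and lowest score groups. Over the summit the H3K27ac difference was -26.6, and with 50% of the peak covered -27.4 for H3K27ac and -0.113 for H3K4me3. The upper 50% of each island list gave -24.1 for H3K27ac, -1.24 for H3K4me3, and kept-share differences of -37.7 and -6.26 from peaks at H3K4me3 and from Foxa1/2-shared peaks. The upper 50% of the Nkx2-1 list (1538 sites) gave -34.9, -4.94, -37.8 and -11.9 in the same order. With no Foxa1/2 peak within 1 kb (4891 sites), H3K4me1 differed by -23.2, H3K4me3 by -2.07, and the kept shares by -36.2 and -12.1. With Foxa1/2 shared only at summits within 200 bp (5835 sites), these were -20.3, -3.84, -32.8 and -6.11. The difference between score groups was -2.80 points (-7.21 to 1.63) there, and its interval also reached 0 with summit cover and with 50% cover. Leaving out the run on chromosome 9 moved none of the 7 results outside its interval. No paired analysis was possible because both files of a group are identical, so no sample has values of its own, and no replicate could be left out. The cause of the other shifts was not tested. Differences within one list's threshold cannot be resolved, since reads below it are not listed.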
